A study of Homo sapiens with 6 samples.

Results

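NF-κB is a family of dimeric transcription factors, and the 10 genes described here are its 5 subunits (RELA, NFKB1, NFKB2, RELB and REL), 3 of its inhibitors (NFKBIA, NFKBIE and TNFAIP3) and a pair of genes that it switches on (TNFAIP2 and BIRC3). They were taken by symbol as members of the pathway, with earlier results of these data known, and all 10 were found among the 27216 rows of a table of RNA-sequencing values. The cells were H1975, a human EGFR-mutant non-small cell lung cancer line labelled WT for genotype, in 3 parental samples (Osi for 0 h) and 3 adapted samples (72 h of Osi, osimertinib, an EGFR tyrosine kinase inhibitor, at 1000 nM). RNA of the adapted group came from the cells left after apoptotic cells had been washed off, and the labels give RNase R, which digests linear RNA, before library preparation, while the study's methods name total RNA. The columns of the parental samples are named for DMSO, and the sources used here do not say how long those cells were kept in it. Nothing in the labels says whether the 3 samples of a group came from separate cultures, so p-values measure the spread between these samples, which may be technical.

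In resting cells the dimers are held in the cytoplasm by IκB proteins. Cytokines such as TNF and IL-1 activate the IKK kinase complex, which marks IκB for destruction, and the freed dimers enter the nucleus and bind κB sites. The genes of several subunits, of IκBα and of the ubiquitin-editing enzyme A20 are themselves targets, so that the pathway writes its own brakes, and in lung epithelium it is known for inflammatory and survival gene expression.

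Each value is 1 number per gene and sample, deposited on a log2 scale. Its unit is not named and was inferred from the values as log2(FPKM + 1), and all levels in FPKM rest on this. FPKM counts fragments relative to the length of the transcript and the size of the library. The depth behind the values is unknown. Back on the linear scale, the sample sums ran from 375342 to 387753. Over all rows, pairs of parental samples had correlations of 0.9972 to 0.9975, adapted replicates 2 and 3 at 0.9961, and adapted replicate 1 with these at 0.9906 and 0.9909. Of 6 epithelial markers all were detected, with summed levels of 3710 to 3742 FPKM in parental and 3491 to 3788 FPKM in adapted samples. Within this sum KRT7 rose from 9.39 ± 0.01 to 10.47 ± 0.21 in log2(FPKM + 1), while KRT19 went from 9.87 ± 0.01 to 9.12 ± 0.16, KRT18 from 9.74 ± 0.01 to 9.17 ± 0.22 and KRT8 from 9.82 ± 0.02 to 9.54 ± 0.18 (SD, n = 3 each), all 4 past the threshold of the test below (adjusted p by limma of 2.19e-04, 4.74e-04, 0.00427 and 0.0477), and EPCAM and CDH1 did not pass it (0.162 and 0.972). The summed level of 6 leukocyte markers was 74.6 to 76.9 FPKM in parental and 14.8 to 29.8 FPKM in adapted samples, nearly all of it CD68, a lysosomal protein, while CD3E was listed at 0 in every sample and PTPRC at 0.00 ± 0.00 and 0.04 ± 0.03 on the log2 scale (SD, n = 3 each). Of 6 fibroblast and endothelial markers the summed level was 4.23 to 4.95 FPKM in parental and 9.8 to 12.1 FPKM in adapted samples, mostly COL1A1, a collagen that rose by 1.12 on the log2 scale (adjusted p = 7.80e-05 by limma), and PDGFRA and COL1A2 were at 0.01 or less on the log2 scale in both group means. The other members of that list were too low to be tested. PECAM1 was at 1.43, 1.63 and 0.994 FPKM in parental and 0.0531, 0.0617 and 0.0756 FPKM in adapted samples, CDH5 at 0.142, 0.205 and 0.121 FPKM and 1.28, 3.22 and 2.67 FPKM, and COL3A1 at 0, 0.0152 and 0 FPKM and 1.59, 0.128 and 0.0827 FPKM. The part of these marker genes in the results was not tested.

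The promoter sequences are shown because several of the 10 genes are textbook targets of NF-κB, and RELA is printed as a gene whose windows held no match. RefSeq promoter windows (GRCh38.p14) matched 8 of the 10 genes by symbol, with 12 windows in all, and the 250 bases before each annotated start were searched on both strands for the κB consensus, the 10-base motif of the family. It was found for 6 of the 8 genes, in 7 of their 12 windows, against 9.96% of all 35116 windows. Among the 9334 tested genes with a window, 15.6% held it in at least 1 window. Since several of the genes were chosen as known targets, their higher share may come with that choice and is no result of these samples. The windows of RELA and TNFAIP2 held none. Of these, TNFAIP2, whose sequence is not printed, was lower in adapted cells (log2 fold change -0.72, limma, adjusted p = 3.26e-04), and RELA was not called. Each sequence is written 5′ to 3′ on the strand of its gene and ends at the base before RefSeq's start, with κB consensus matches in capitals.
BIRC3 (chr11:102317234-102317483, plus strand): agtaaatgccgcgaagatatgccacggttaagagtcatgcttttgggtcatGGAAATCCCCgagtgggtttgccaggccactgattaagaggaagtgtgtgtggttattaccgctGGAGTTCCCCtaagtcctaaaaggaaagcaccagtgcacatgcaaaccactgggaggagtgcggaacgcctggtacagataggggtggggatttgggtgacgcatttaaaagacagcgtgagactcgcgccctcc
TNFAIP3 (chr6:137867009-137867258, plus strand): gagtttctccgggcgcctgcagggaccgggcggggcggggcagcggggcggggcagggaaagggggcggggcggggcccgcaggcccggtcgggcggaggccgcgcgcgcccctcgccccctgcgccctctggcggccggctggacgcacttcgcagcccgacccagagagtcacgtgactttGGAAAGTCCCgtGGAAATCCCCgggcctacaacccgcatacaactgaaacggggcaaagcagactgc
NFKBIA (chr14:35404750-35404999, minus strand): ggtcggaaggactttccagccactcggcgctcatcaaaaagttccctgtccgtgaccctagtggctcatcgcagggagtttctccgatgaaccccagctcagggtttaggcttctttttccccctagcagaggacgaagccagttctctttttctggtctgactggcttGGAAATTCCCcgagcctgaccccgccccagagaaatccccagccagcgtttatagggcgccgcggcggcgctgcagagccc
REL (chr2:60881324-60881573, plus strand): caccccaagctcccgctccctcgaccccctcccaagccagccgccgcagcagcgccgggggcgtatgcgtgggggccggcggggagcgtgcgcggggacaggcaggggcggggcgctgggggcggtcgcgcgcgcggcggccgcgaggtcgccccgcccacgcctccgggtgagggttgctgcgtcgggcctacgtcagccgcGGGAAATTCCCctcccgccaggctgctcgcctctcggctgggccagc
NFKB1 (chr4:102501109-102501358, plus strand): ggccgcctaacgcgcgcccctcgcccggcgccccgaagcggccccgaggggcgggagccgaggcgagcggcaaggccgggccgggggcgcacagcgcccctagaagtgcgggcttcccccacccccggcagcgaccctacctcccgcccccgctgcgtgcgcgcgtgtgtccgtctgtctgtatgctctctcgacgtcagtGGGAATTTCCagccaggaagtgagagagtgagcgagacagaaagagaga
NFKB2 (chr10:102394328-102394577, plus strand): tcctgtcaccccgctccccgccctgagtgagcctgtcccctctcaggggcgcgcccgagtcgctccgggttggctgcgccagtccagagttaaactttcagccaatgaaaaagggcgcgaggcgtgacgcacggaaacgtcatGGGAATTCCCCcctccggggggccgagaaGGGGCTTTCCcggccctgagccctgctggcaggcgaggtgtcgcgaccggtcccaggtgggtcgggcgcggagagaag
RELA (chr11:65662917-65663166, minus strand): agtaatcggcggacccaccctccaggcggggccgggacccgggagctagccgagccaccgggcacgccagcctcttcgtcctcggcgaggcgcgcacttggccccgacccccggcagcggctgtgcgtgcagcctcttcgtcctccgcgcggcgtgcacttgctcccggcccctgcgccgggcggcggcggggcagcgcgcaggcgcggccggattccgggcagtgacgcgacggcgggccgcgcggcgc

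The matches lay within the last 107 bases before the start in TNFAIP3, NFKBIA, REL, NFKB1 and the NFKB2 window shown, and BIRC3 held the most distant of those shown, which begins 199 bases before its start. TNFAIP3 has 2 separate matches, which read GGGACTTTCC and GGGGATTTCC on the strand opposite to the gene, and the second set of letters is also that of the distant match of BIRC3. The match of NFKBIA reads GGGAATTTCC on that strand, the same letters as the match of NFKB1 on its own strand and as 1 of 2 overlapping matches of REL. A match is a run of letters in the reference, and no binding was measured in these samples.

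**Figure D1:**
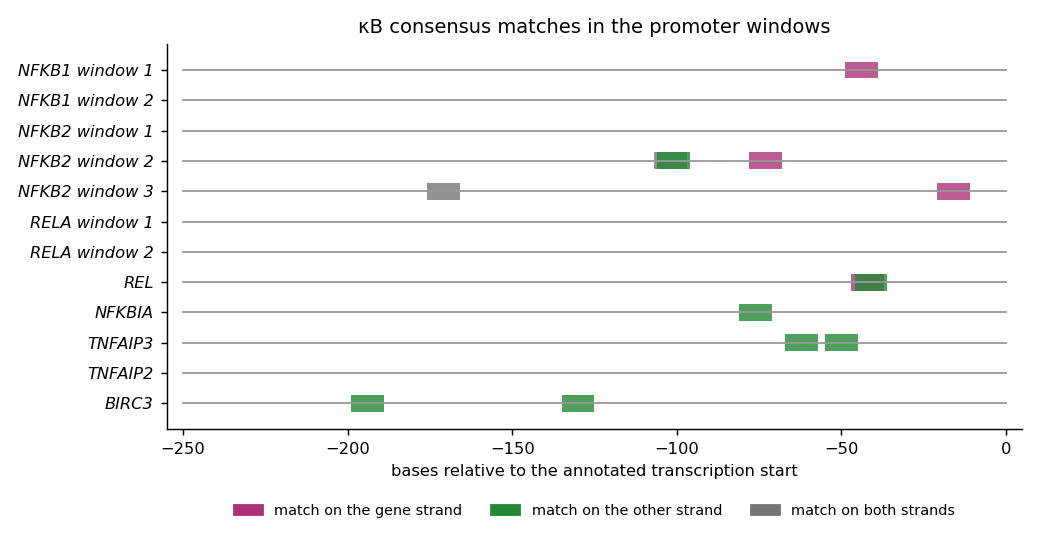
Positions of κB consensus matches in the 250 bases before each annotated start, with bases relative to the start on the horizontal axis and 1 line per promoter window. Boxes are 10-base matches coloured by strand, and 6 of the 8 genes with a window hold at least 1, while the lines of RELA and TNFAIP2 are empty.

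In the GENCODE v29 annotation of GRCh38, the subunit genes lie at chr11:65653596-65663094 (RELA, minus strand), chr4:102501329-102617302 (NFKB1), chr10:102394110-102402529 (NFKB2), chr19:45001430-45038198 (RELB) and chr2:60881521-60931610 (REL). The inhibitors lie at chr14:35401511-35404749 (NFKBIA, minus strand), chr6:44258166-44265788 (NFKBIE, minus strand) and chr6:137867188-137883312 (TNFAIP3), and the effectors at chr14:103123442-103137439 (TNFAIP2) and chr11:102317450-102339403 (BIRC3), those without a strand given being on the plus strand.

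After 72 h of Osi, 8 of the 10 genes were lower and none was higher past the threshold (limma across 12656 rows with a mean log2 value of at least 1, Benjamini-Hochberg adjusted p under 0.05). Of all rows tested, 56.9% passed this threshold, of which part fell (26.2% of all rows) and part rose (30.7%). The genes that fell were BIRC3, TNFAIP3, NFKBIA, REL, NFKBIE, TNFAIP2, NFKB1 and NFKB2, and the exceptions were RELA and RELB. The 3 values of each of the 8 genes in adapted cells lay below all 3 parental values, which held for 30.6% of all rows, while in 35.7% of rows all adapted values were higher. A fall of at least 1 on the log2 scale as well was seen in 3 genes (BIRC3, TNFAIP3 and NFKBIA), against 5.18% of all rows. The median log2 fold change of the 10 genes was -0.73, and that of all rows tested was 0.028. In bulk samples, fewer cells that express a gene and less RNA per cell cannot be told apart. Both counts of the 10 genes (8 lower, 0 higher) were also those without adapted replicate 1. In that fit 3930 of all rows fell and 4441 rose, against 3313 and 3889 with all samples.

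**Figure D2:**
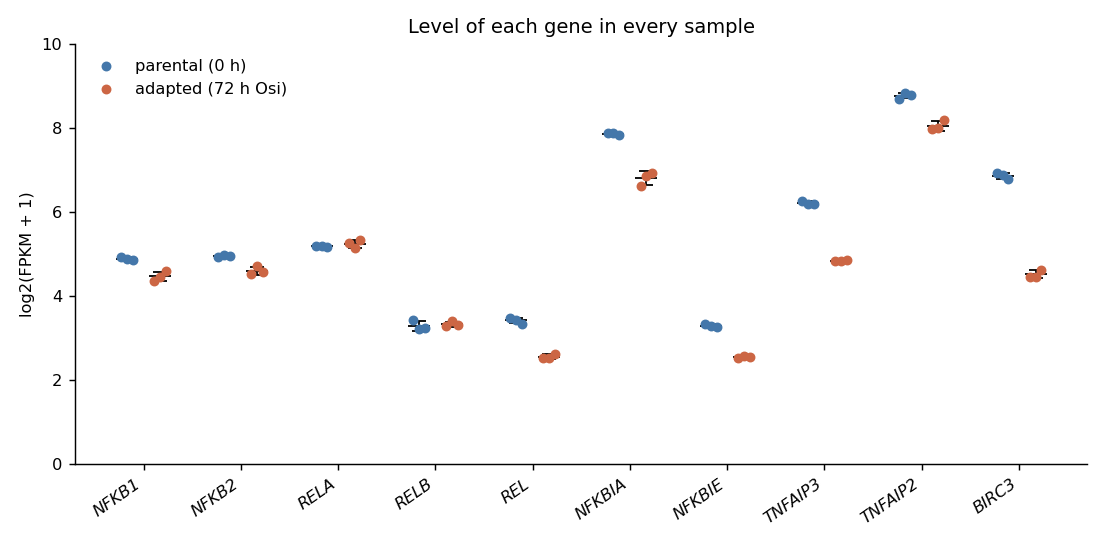
Deposited level, log2(FPKM + 1), of each of the 10 genes in the 3 parental (blue) and 3 adapted (red) samples, with bars at the mean ± SD. The groups do not overlap in 8 genes and do in RELA and RELB.

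Among the subunits, RELA, the p65 protein that carries the main activation domain of the canonical dimer, was the most abundant transcript in both groups. Its level was 35.5, 35.4 and 34.7 FPKM in the parental samples and 37.2, 34.3 and 38.8 FPKM in the adapted samples. The groups overlapped, and the log2 fold change was 0.06 with a 95% interval from -0.09 to 0.21 (limma, adjusted p = 0.452). RELB, the partner of p52 in the non-canonical pathway, was at 9.71, 8.19 and 8.38 FPKM in parental and 8.65, 9.48 and 8.92 FPKM in adapted samples. Parental replicate 1 was the highest of all 6, and the log2 fold change was 0.04 (95% interval -0.15 to 0.23, limma, adjusted p = 0.701). Neither interval reached the size of the fall of REL, NFKB1 or NFKB2.

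REL, the c-Rel subunit, known for its role in lymphocytes, had the largest fall of the subunits. It was at 10.1, 9.7 and 9.1 FPKM in parental and 4.79, 4.69 and 5.15 FPKM in adapted samples, so that the lowest parental value was well above the highest adapted value. The log2 fold change was -0.86 ± 0.07 (standard error, limma, adjusted p = 7.97e-05), and the mean linear level was 1.98-fold lower. In GENCODE v29, 5702 exon bases of REL are shared with AC010733.2, a non-coding gene annotated on the same strand, whose reads could not be told apart there.

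NFKB1 encodes p105, the precursor of p50 and itself an IκB-like inhibitor. It was at 29.5, 28.5 and 27.8 FPKM in parental and 19.4, 21 and 22.9 FPKM in adapted samples. NFKB2, which encodes p100, the precursor of p52, was at 29.4, 30.5 and 30.2 FPKM in parental and 22, 25.1 and 22.8 FPKM in adapted samples. Both fell with no overlap between the groups and by less than REL did. Their log2 fold changes were -0.42 (limma, adjusted p = 0.00225) and -0.35 (adjusted p = 0.00315), which is 1.35-fold and 1.29-fold lower in mean linear level.

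The make-up of the subunit transcripts was compared within each sample. The 5 transcripts summed to 112 ± 2.03 FPKM in parental and 95.1 ± 3.36 FPKM in adapted cells (SD, n = 3 each), with p = 0.1 by a two-sided exact permutation test, which cannot go lower with 3 samples in each group. RELA took 31.1%, 31.5% and 31.5% of this sum in the parental samples and 40.4%, 36.3% and 39.4% in the adapted samples, and the share of RELB was 7.80% ± 0.631 in parental and 9.49% ± 0.492 in adapted samples (SD, n = 3 each). The share of REL was 8.59% ± 0.311 and 5.13% ± 0.154, and that of NFKB1 25.5% ± 0.309 and 22.2% ± 1.09 (SD, n = 3 each). For these 4 shares the groups did not overlap (exact permutation p = 0.1, adjusted over 5 shares 0.125). The share of NFKB2 overlapped, at 26.8% ± 0.915 and 24.5% ± 1.77 (exact permutation p = 0.2, adjusted 0.2). A share within a sample does not depend on the scaling between samples. The shares add up to the whole in each sample, and the levels of RELA and RELB changed little. Their higher shares therefore restate the falls of the other subunits given above.

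Of the inhibitors, NFKBIA encodes IκBα, the fast feedback inhibitor that NF-κB induces within its own response. It was at 234, 232 and 227 FPKM in parental and 96.5, 115 and 121 FPKM in adapted samples. Adapted replicate 1 was the lowest, and even the highest adapted value was far below the parental ones. The log2 fold change was -1.06 ± 0.09 (standard error, limma, adjusted p = 8.52e-05), a 2.09-fold lower mean level. NFKBIE, which encodes IκBε, a slower feedback inhibitor, was at 9.03, 8.76 and 8.54 FPKM in parental and 4.79, 4.89 and 4.86 FPKM in adapted samples. The adapted samples lay close together and below all parental ones (log2 fold change -0.74, limma, adjusted p = 8.11e-05).

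TNFAIP3 encodes A20, which removes and edits the ubiquitin chains that carry the TNF and IL-1 signal to IKK. Its level was 75.5, 71.3 and 72.2 FPKM in parental and 27.4, 27.7 and 27.9 FPKM in adapted samples. The adapted values spanned a narrow range, and the mean was 2.64-fold lower (log2 fold change -1.37 ± 0.05, standard error, limma, adjusted p = 3.59e-06). In GENCODE v29, 95 exon bases of TNFAIP3 overlap the antisense gene AL357060.1, and the strandedness of the libraries is not given in the sources used here.

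The level of each inhibitor transcript was also set against that of RELA within each sample. The log2 ratio of NFKBIA to RELA was 2.72, 2.71 and 2.71 in the parental and 1.38, 1.74 and 1.64 in the adapted samples. For TNFAIP3 it went from 1.05 ± 0.04 to -0.41 ± 0.09 (SD, n = 3 each), so that this transcript was above RELA in every parental sample and below it in every adapted one. For NFKBIE it was -1.98, -2.02 and -2.02 in the parental and -2.92 ± 0.10 in the adapted samples (SD, n = 3). In each of the 3 ratios the groups did not overlap (two-sided exact permutation test, p = 0.1, adjusted over 3 ratios 0.1). Since the level of RELA changed little, the ratios restate the falls of the inhibitors given above.

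The remaining genes are effectors. BIRC3 encodes cIAP2, a ubiquitin ligase that blocks cell death at the TNF receptor and is induced by NF-κB. It was at 121, 116 and 110 FPKM in parental and 20.9, 21 and 23.6 FPKM in adapted samples, the largest fall of the 10. The mean was 5.29-fold lower (log2 fold change -2.35 ± 0.07, standard error, limma, adjusted p = 1.37e-06). On the log2(FPKM + 1) scale 76 of the 12656 rows fell by more, which is not a rank in linear fold. TNFAIP2, a TNF-induced gene related to a subunit of the exocyst, was the most abundant of the 10 in both groups, at 414, 453 and 438 FPKM in parental and 250, 253 and 290 FPKM in adapted samples. It fell with no overlap between the groups, by 0.72 on the log2 scale (adjusted p by limma = 3.26e-04), a 1.64-fold lower mean level.

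**Figure D3:**
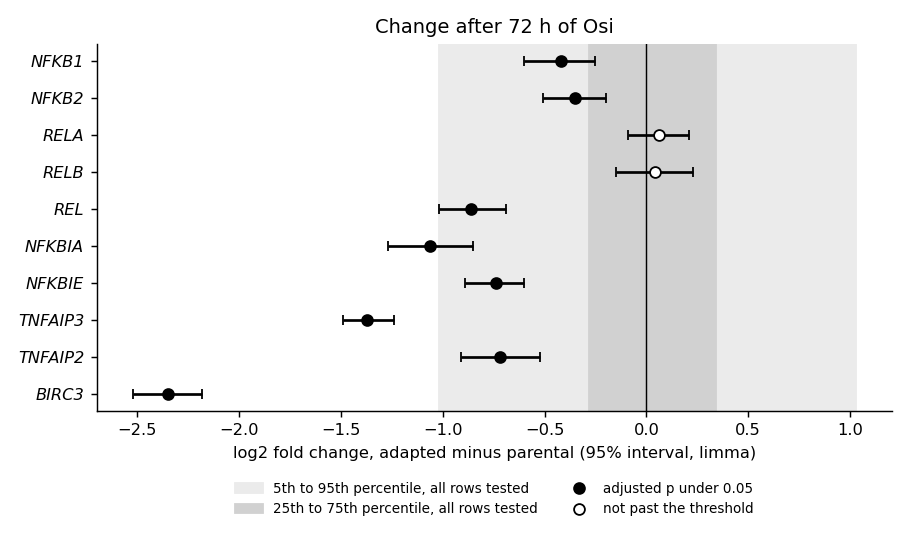
Log2 fold change of each gene, adapted minus parental, with limma's 95% interval, where filled points have an adjusted p under 0.05 and grey bands mark the percentiles of all rows tested. BIRC3 (-2.35), TNFAIP3 (-1.37) and NFKBIA (-1.06) lie farthest to the left, and the intervals of RELA and RELB include 0.

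The order of the levels, which FPKM scales to length, changed with these falls. In parental cells it ran from TNFAIP2 (mean 435 FPKM) through NFKBIA, BIRC3, TNFAIP3, RELA, NFKB2, NFKB1, REL and NFKBIE to RELB (8.76 FPKM). The neighbours NFKB2 and NFKB1, and NFKBIE and RELB, overlapped in their samples, and the other neighbours did not. In adapted cells BIRC3 went from the third to the sixth place, between NFKB2 and NFKB1, and overlapped both. RELA went from the fifth to the third, and REL and NFKBIE, which overlapped, stood last at 4.88 and 4.85 FPKM.

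The 3 named genes whose 6 values lay nearest to those of BIRC3, after each gene was centred on its parental mean, were STRA6, CES1 and FOS (Euclidean distance on the log2 scale 0.22, 0.24 and 0.25 over 6 samples). STRA6 went from 3.64 ± 0.01 to 1.37 ± 0.03, CES1 from 2.29 ± 0.04 to 0.04 ± 0.04 and FOS from 2.96 ± 0.05 to 0.59 ± 0.06 in log2(FPKM + 1) (SD, n = 3 each). With 2 groups, this likeness rests on the size of the group difference. CES1 and FOS have adapted means under 1 and passed the filter through the parental samples alone. Near 0 the log2(FPKM + 1) scale understates fold changes, so their likeness to BIRC3 is not one of linear fold change.

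**Figure D4:**
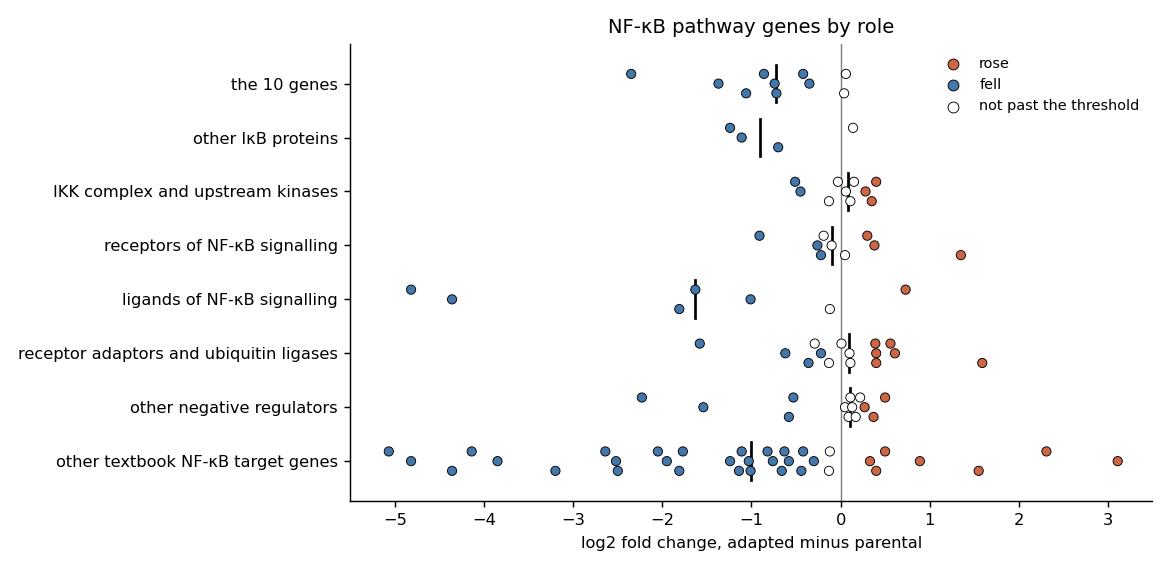
Log2 fold change, adapted minus parental, of the 10 genes and of the tested genes of 7 lists of other pathway genes, 1 point per gene, with a vertical line at each median. Points of the ligands and of the textbook targets reach below -4, and the kinase, adaptor and receptor lists have medians of 0.08, 0.10 and -0.10.

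The other genes of the pathway were read by role from 7 lists written by hand, with 97 genes, of which 84 were tested and 9 are in more than 1 list. Of the tested genes 21 rose and 40 fell, against 30.7% and 26.2% of all rows. The count that rose was 13 without parental replicate 2, where fewer of all rows were called in each direction as well. The filter on the mean over all samples was passed through 1 group alone by TLR1 and IL32, whose parental means are under 1, and by TNF, IL1A, IL36G and CSF3, whose adapted means are under 1, so that these genes had to differ to be tested and their part in the counts of their lists is no support for a direction. Of the other IκB proteins, 3 of 4 fell and none rose. BCL3, a nuclear IκB that works with p50 and p52, fell from 5.52 ± 0.03 to 4.28 ± 0.27 in log2(FPKM + 1) (SD, n = 3 each). NFKBIZ, another nuclear IκB, fell by 1.11 (limma, adjusted p = 0.00112) and NFKBID fell by 0.70 on the log2 scale (adjusted p = 7.13e-04). The exception, NFKBIB, which encodes IκBβ, was at 3.62 ± 0.04 and 3.76 ± 0.11 (adjusted p = 0.13), higher in all 3 adapted samples, and passed the threshold when adapted replicate 1 was left out.

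Of 7 tested ligands 5 fell and 1 rose (26.2% and 30.7% of all rows), with a median log2 fold change of -1.63. TNF, IL1A and IL36G passed the filter through the parental samples alone, so that this count and median are no support for a direction. IL1A and IL1B, the interleukins that signal through the IL-1 receptor to IKK, went from 5.77 ± 0.06 to 0.95 ± 0.03 and from 5.72 ± 0.04 to 1.35 ± 0.20 in log2(FPKM + 1) (SD, n = 3 each). LTB, a ligand of the non-canonical pathway, fell by 1.81 on the log2 scale (adjusted p by limma = 6.19e-06). TNFSF10, which encodes TRAIL, rose from 3.53 ± 0.04 to 4.26 ± 0.49 (limma, adjusted p = 0.0231). This last call was lost without parental replicate 1, 2 or 3 or adapted replicate 2 (adjusted p = 0.0616, 0.0664, 0.0574 and 0.0517) and without the filter on low values (0.11). Adapted replicate 1 was the highest, and without it the log2 fold change was 0.46, against 0.73 with all samples.

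Of 9 receptors tested 3 rose and 3 fell, shares close to the 30.7% and 26.2% of all rows. TNFRSF1B, which encodes TNF receptor 2, fell by 0.91 on the log2 scale (adjusted p by limma = 0.00438), and TNFRSF1A, TNF receptor 1, fell by 0.26 (adjusted p = 0.0124, but 0.0571 without parental replicate 2 and 0.0568 without parental replicate 3). TLR1, which works with TLR2, was at 0.48 ± 0.04 in parental and 1.83 ± 0.53 in adapted samples, passed the filter through the adapted samples alone and was not tested without adapted replicate 2 or 3. TLR3, a sensor of double-stranded RNA, rose from 1.42 ± 0.04 to 1.80 ± 0.11 in log2(FPKM + 1) (SD, n = 3 each). LTBR, the lymphotoxin receptor, was at 6.36 ± 0.03 and 6.14 ± 0.10 (adjusted p = 0.0286) and lost its call in 7 alternatives, where, as for the genes that follow, the limit on the fold change is not counted, among them without parental replicate 1, 2 or 3 or adapted replicate 2 (adjusted p = 0.0758, 0.108, 0.0731 and 0.0627). TNFRSF12A, which encodes the TWEAK receptor, was at 6.58 ± 0.04 and 6.87 ± 0.15 (adjusted p = 0.0185) and lost its call without parental replicate 1 or 2 (0.0703 and 0.0606) and without the filter (0.0569).

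In the list of IKK and upstream kinases 3 of 10 genes rose and 2 fell, with a median of 0.08, also close to the 30.7% and 26.2% of all rows. IKBKB, the kinase subunit of the canonical pathway, rose by 0.35 (limma, adjusted p = 0.00193) and TAB3, an adaptor of the TAK1 kinase, rose by 0.40 on the log2 scale (adjusted p = 0.00614), while its relative TAB2 fell by 0.51 (adjusted p = 0.00185). IKBKG, the NEMO subunit of IKK, was at 3.59 ± 0.08 and 3.87 ± 0.14 (adjusted p = 0.0285), and its call was lost without parental replicate 1, 2 or 3 or adapted replicate 2 (0.0704, 0.108, 0.0535 and 0.0815) and with 2 other settings. MAP3K14, the NIK kinase of the non-canonical pathway, was at 2.93 ± 0.05 and 2.48 ± 0.28 (adjusted p = 0.0245), and its call was lost in all leave-one-out fits except the one without adapted replicate 1 (0.0592 to 0.0804).

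Among 15 receptor adaptors and ubiquitin ligases 6 rose and 4 fell (30.7% and 26.2% of all rows). MYD88, the adaptor of the IL-1 and Toll-like receptors, rose from 3.88 ± 0.12 to 5.47 ± 0.34 in log2(FPKM + 1) (SD, n = 3 each), while IRAK2, a kinase that acts after it, fell from 4.06 ± 0.09 to 2.49 ± 0.12. RIPK1, a kinase at the TNF receptor, rose by 0.56 on the log2 scale (adjusted p by limma = 3.79e-04). Of the LUBAC complex, which builds linear ubiquitin chains, the catalytic RNF31 rose by 0.61 (adjusted p = 0.0078) and RBCK1 fell by 0.62 (adjusted p = 5.00e-04). TRAF5, an adaptor of TNF family receptors, was at 2.29 ± 0.06 and 1.93 ± 0.25 (adjusted p = 0.0466) and lost its call without parental replicate 1, 2 or 3 (0.083, 0.114 and 0.134) and under 4 other settings, and its log2 fold change was -0.21 without adapted replicate 1, against -0.36.

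Of 13 other negative regulators 4 fell and 3 rose (26.2% and 30.7% of all rows). TNIP3 and TNIP1, which bind A20, went from 5.16 ± 0.04 to 2.94 ± 0.48 and from 6.86 ± 0.02 to 6.28 ± 0.16 in log2(FPKM + 1) (SD, n = 3 each). ZC3H12A, which encodes an RNase that degrades cytokine transcripts, went from 6.28 ± 0.04 to 4.74 ± 0.21. OTUD7B, a deubiquitinase, rose by 0.37 on the log2 scale (adjusted p by limma = 0.00301). RNF11, which works with A20, was at 5.24 ± 0.06 and 5.52 ± 0.15 (adjusted p = 0.0276), and its call was lost in all leave-one-out fits except the one without adapted replicate 1 (0.0518 to 0.0991). CYLD, a tumor suppressor that removes ubiquitin chains, was at 3.14 ± 0.26 and 3.63 ± 0.31 with an adjusted p of 0.0498, and lost its call under 11 alternatives other than the limit on the fold change, among them without parental replicate 2 or 3 or adapted replicate 1 or 2 (0.155, 0.0991, 0.0825 and 0.0731). Its log2 fold change was 0.32 without adapted replicate 1, against 0.50.

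Of 40 textbook targets other than the 10 genes, 35 were tested. Of these 26 fell and 7 rose (26.2% and 30.7% of all rows), with a median log2 fold change of -1.01. IL1A and CSF3 passed the filter through the parental samples alone, and their part in these counts is no support for a direction. On the log2(FPKM + 1) scale CCL20, a chemokine for dendritic cells and lymphocytes, fell most (-5.07, adjusted p = 1.64e-07 by limma), followed by IL1A and IL1B. In mean linear level IL1A was 57.5-fold lower, CSF3 43-fold, CCL20 39.6-fold and IL1B 32.9-fold, so the order depends on the scale. The targets singled out after their values were seen were all picked from those that fell. CXCL8 went from 8.94 ± 0.07 to 6.30 ± 0.39 in log2(FPKM + 1) (SD, n = 3 each). SOD2, the mitochondrial superoxide dismutase, went from 7.94 ± 0.12 to 5.99 ± 0.17, and the adhesion molecule ICAM1 from 7.88 ± 0.03 to 6.85 ± 0.15. The list also held genes that went the other way. GADD45B, a stress-response gene, rose from 2.83 ± 0.01 to 5.14 ± 0.07. IL32, a cytokine that passed the filter through the adapted samples alone, was at 0.88 ± 0.32 and 3.99 ± 0.16. CCL2, a monocyte chemokine, was at 5.86, 5.23 and 6.11 FPKM in parental and 42.2, 10.5 and 14.4 FPKM in adapted samples (log2 fold change 1.55, limma, adjusted p = 0.0184), a call that was lost without parental replicate 2 (0.0561) and without the filter (0.101). Adapted replicate 1 was far above the other two, and without it the log2 fold change was 0.99.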

How the data were processed

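The authors deposited log2 values, 1 per gene and sample, for 27216 rows in 3 parental and 3 adapted H1975 samples; the scale, log2(FPKM + 1), was inferred from the values. The submitters' processing notes list Bowtie2 2.1.0, STAR, edgeR and hg38 without roles, and the quantifier and annotation are not given in the sources used here. Columns named DMSO and OSI were matched to samples by group and replicate number.

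The study's own test needs counts, which these values are not, so limma 3.58.1 (R 4.3.3, eBayes with a trend, two-sided, tested on simulated data) was fitted to the 12656 rows with a mean of at least 1, with Benjamini-Hochberg adjustment at 0.05. The simulated data had far fewer changed rows than were called here and the same spread in both groups, so they do not cover the present setting. Fold changes on this scale understate those of low genes. In 147 rows the values of 1 group carry an added constant, and none is a gene of the lists used here. Shares and ratios used linear values and exact permutation tests. The depth is unknown, and the error given is that between samples.

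The genes and lists were chosen with earlier results of these data known. The rule named all 10 genes, in each list the called genes without overlap that had the 3 highest rises and the 3 deepest falls, and the 3 genes nearest to the one that changed most; NFKBIB, CXCL8, SOD2 and ICAM1 were added after their values were seen. Alternatives covered the pseudocount, filters, scaling, variance model, replicate block, left-out samples, rows with a constant, unannotated rows and a limit on the fold change.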

Additional observations from a re-analysis of the deposited data

How the results depend on the processing

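The log2 fold changes of the 8 genes that fell kept their direction and their call in every alternative run but the limit on the fold change. They ranged from -2.41 to -2.30 for BIRC3, from -1.40 to -1.32 for TNFAIP3, from -1.13 to -0.97 for NFKBIA, from -0.97 to -0.81 for REL, from -0.84 to -0.70 for NFKBIE, from -0.79 to -0.60 for TNFAIP2, from -0.48 to -0.37 for NFKB1 and from -0.41 to -0.31 for NFKB2. REL and NFKBIE were removed by the filter at a mean of at least 3. With the limit on the fold change (1 or more on the log2 scale in either direction), 3 genes were called lower, and NFKB1 (-0.42), NFKB2 (-0.35), REL (-0.86), NFKBIE (-0.74) and TNFAIP2 (-0.72) were not. RELA stayed between 0.02 and 0.11 and was not called in any alternative, and RELB was at 0.11 without parental replicate 1 and changed sign without parental replicate 2 (-0.0025, adjusted p = 0.986), also uncalled. With the stricter filter 2357 rows rose and 2175 fell, by construction of fewer rows tested, and with the limit on the fold change 672 rose and 656 fell. Pathway list genes that rose numbered 13 without a filter, 5 with the limit and 13 to 25 with 1 sample left out. Those that fell numbered 22 with the limit and 33 to 46 with 1 sample left out. The counts of all rows moved too, with 3194 to 4441 higher and 2568 to 3930 lower with 1 sample left out. Without a filter more of all rows were called in each direction than with it. The cause of the count of 13 was not tested. Among pathway genes not called with all samples, 5 changed sign: TBK1 (0.02 after sums were equalized with mitochondrial genes left out) and IRAK4 (-0.03 after quantile normalization and -0.01 after median centring), and with 1 sample left out TBK1 (-0.10 to 0.03), TNFRSF21 (-0.0087 to 0.13), TNFSF12 (-0.33 to 0.04, called lower without adapted replicate 1), IRAK4 (-0.03 to 0.07) and COMMD1 (-0.02 to 0.11). All shares and ratios kept their direction in the alternatives run for them, which were log2 values used directly and 1 sample left out. Where the groups do not overlap, leaving 1 sample out cannot reverse a direction. No pairing by replicate number was visible in the values. The correlations of deviations from the group means were -0.051, -0.031 and -0.02 for the same number. No parental sample correlated best with the adapted sample of its own number. These correlations cannot show whether samples of the same number came from the same culture or run. With the replicate block 8 of the 10 genes fell, as without it, with 3668 rows higher and 3093 lower in all, and IKBKG (adjusted p = 0.0529) and LTBR (0.0666) lost their calls. Unknown depth limits what can be said of genes near 0.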
